A study of Mus musculus with 12 samples.

Results

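The genes described here are 10 components of transforming growth factor beta (TGF-β) and bone morphogenetic protein (BMP) signalling in the developing mouse lung: the ligands Tgfb1, Tgfb2, Tgfb3, Bmp4 and Bmp5, and the receptors Tgfbr1, Tgfbr2, Tgfbr3, Bmpr2 and Acvrl1. They were chosen by symbol, and all 10 were found among the 16152 genes of the count table. RNA was sequenced from whole lungs of untreated C57BL/6 mice at 4 time-points, namely embryonic days E15.5 and E18.5 and postnatal days P5 and P8, with 3 libraries each (12 libraries in all). Both sexes were used, and the mice of a time-point were littermates, so that litter and time-point cannot be told apart and p-values measure the spread between littermates. The embryonic time-points lie before the first breath, and P5 and P8 fall in the period in which alveoli form.

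TGF-β and BMP ligands are secreted dimers that bring together type II and type I receptor kinases at the cell surface. The type I kinase then phosphorylates SMAD proteins, which enter the nucleus with SMAD4 and change transcription. TGF-β ligands use TGFBR2 with TGFBR1 and signal mainly through SMAD2 and SMAD3, while BMPs use type II receptors such as BMPR2 with other type I receptors and signal through SMAD1, SMAD5 and SMAD9. ACVRL1 (ALK1) is a type I receptor found mostly on endothelium, where it works with BMPR2 and the co-receptor endoglin, and TGFBR3 (betaglycan) is a co-receptor that presents TGF-β2. In the lung these pathways are known for their roles in airway branching, in smooth muscle and matrix formation, and in the pulmonary vessels, in which mutations of BMPR2, ACVRL1 and ENG cause heritable vascular disease.

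The total count on genes ranged from 41337443 to 53901957 per library, and each of the 10 genes had between 1648 and 25435 counts in every library, so none was near the limit of detection. Levels are given as CPM (counts scaled to 1000000 mapped reads), mean ± SD of 3 libraries. Differences are log2 fold changes, later minus earlier time-point, from 1 edgeR quasi-likelihood fit of all 12 libraries, with the false discovery rate (FDR, Benjamini-Hochberg) taken over the 15994 genes tested in each comparison. A gene is said to rise or fall when its FDR was under 0.05, and to pass both cutoffs when its log2 fold change also exceeded 1 in size. Defining lung epithelial genes were present in all libraries, with Nkx2-1 at 136 CPM or more. Some libraries had high levels of heart muscle or thymus genes, called heart RNA and thymus RNA here. The source of this RNA was not tested. The summed level of 8 heart muscle genes was 1200 and 1495 CPM in E15.5 replicates 1 and 2 against 65.7 to 420 CPM in the other 10 libraries. That of 10 thymus genes was 228 and 433 CPM in P8 replicates 1 and 2 against 4.50 to 33.6 CPM elsewhere. Comparisons that use E15.5 or P8 are therefore also given without these 4 libraries where the call changes. Each of those time-points then keeps 1 library, which is assumed to vary like the others. The fit called without the heart and thymus libraries leaves out only these 4. It keeps the P5 libraries, whose heart muscle sum (135 to 318 CPM) lay above that at E18.5 (67.5 to 108 CPM).

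Sequence is shown for the promoters of the 3 genes among the 10 that rose about 2-fold or more from E18.5 to P5 and have an entry in the RefSeq promoter table (GRCm38.p6, 250 bases before to 50 bases after the start given there). Capitals mark the SMAD-binding letters CAGAC, searched on both strands, and the palindrome GGCGCC, which do not overlap each other here. The Tgfb1 promoter lies on the plus strand at chr7:25686752-25687051, the Tgfbr2 promoter on the minus strand at chr9:116175314-116175613 and the Bmpr2 promoter on the plus strand at chr1:59764029-59764328. The Bmpr2 window lies wholly inside the gene as annotated in Gencode vM21, which starts further upstream, at 59763400.
Tgfb1 promoter: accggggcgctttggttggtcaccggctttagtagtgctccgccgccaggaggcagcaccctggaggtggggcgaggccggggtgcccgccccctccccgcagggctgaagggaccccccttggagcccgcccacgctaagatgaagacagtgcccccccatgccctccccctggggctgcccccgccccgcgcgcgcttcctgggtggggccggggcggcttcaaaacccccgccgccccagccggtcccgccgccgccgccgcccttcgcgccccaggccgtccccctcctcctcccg
Tgfbr2 promoter: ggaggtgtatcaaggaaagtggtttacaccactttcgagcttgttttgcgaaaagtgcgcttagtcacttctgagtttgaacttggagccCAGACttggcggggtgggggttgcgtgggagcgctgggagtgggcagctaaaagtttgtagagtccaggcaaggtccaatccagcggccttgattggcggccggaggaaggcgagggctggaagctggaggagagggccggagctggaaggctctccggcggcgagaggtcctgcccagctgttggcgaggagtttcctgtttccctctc
Bmpr2 promoter: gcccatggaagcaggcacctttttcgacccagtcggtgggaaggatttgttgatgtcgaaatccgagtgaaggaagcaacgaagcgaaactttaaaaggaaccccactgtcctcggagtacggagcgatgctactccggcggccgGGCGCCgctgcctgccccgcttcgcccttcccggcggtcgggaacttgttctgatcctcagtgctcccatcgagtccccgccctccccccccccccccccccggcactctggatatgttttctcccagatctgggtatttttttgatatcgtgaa

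CAGAC occurred once in the Tgfbr2 window and not in the other 2, and GGCGCC occurred once in the Bmpr2 window and not in the other 2. Over the 32851 promoters of the table, 49.6% held CAGAC on either strand, so a CAGAC match is common, and 11.9% held GGCGCC. In all, 7 of the 10 genes had an entry, with 8 promoters between them because Tgfbr1 has 2, and 4 of these 8 held CAGAC and 2 held GGCGCC. The Tgfb1 window was rich in G and C (77.0% against a median of 52.7% over all promoters), and that of Bmp5 was the poorest of the 8 (43.3%).

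A second sequence is shown because inclusion of an exon of Tgfbr2 differed between time-points, as given further down. Of the 2 transcripts annotated for Tgfbr2, Tgfbr2-202 contains a coding exon that the other skips, exon 2 of 8, at chr9:116158271-116158345 on the minus strand (GRCm38, Gencode vM21). It is 75 bases long, which is 25 codons with no remainder, so its inclusion keeps the reading frame. The exon is in capitals, between 20 bases of each neighbouring exon in lower case.
Tgfbr2 exon 2: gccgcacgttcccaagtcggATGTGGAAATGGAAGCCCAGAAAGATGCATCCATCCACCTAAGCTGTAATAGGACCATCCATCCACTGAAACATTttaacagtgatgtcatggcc

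The TGF-β ligands behaved differently from one another. Tgfb1, whose product is the most widely made of the 3 isoforms and is abundant in endothelial and immune cells, rose after birth, whereas Tgfb2 and Tgfb3, made mostly by epithelium and mesenchyme, did not pass the test between any neighbouring time-points. Tgfb1 (chr7:25687002-25705077, plus strand) measured 34.2, 32.4 and 32.96 CPM in the E15.5 libraries and 35.7, 34.5 and 36.4 CPM at E18.5. It then measured 72.8, 78.8 and 67.7 CPM at P5 and 92.2, 93.2 and 89.4 CPM at P8. Every P5 library lay above every embryonic one, and every P8 library above every P5 one. Tgfb1 rose by 1.13 ± 0.07 (SE) on the log2 scale between E18.5 and P5, which is 2.18-fold (edgeR FDR = 2.16e-08), and by another 0.31 ± 0.06 between P5 and P8 (edgeR FDR = 0.00906). The P5 to P8 rise lost its call without the libraries with heart or thymus RNA (log2 0.27, edgeR FDR = 0.16). Between E15.5 and E18.5 the 2 groups of Tgfb1 libraries did not overlap but differed by only 0.11 on the log2 scale (edgeR FDR = 0.263).

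Tgfb2 (chr1:186622792-186705989, minus strand) had group means of 90.7 ± 7.73, 94.1 ± 8.48, 89.0 ± 6.25 and 92.1 ± 14.6 CPM from E15.5 to P8 (n = 3 each), and its libraries overlapped between all time-points. The 95% interval of its E18.5 to P5 log2 difference ran from −0.23 to 0.24, which leaves room for changes well under 2-fold, and the sign of this difference turned with the scaling (0.01 with TMM factors, −0.06 with library sizes alone). Tgfb3 (chr12:86056745-86079041, minus strand) had means of 79.2 ± 6.28, 72.5 ± 13.6, 70.4 ± 5.43 and 84.1 ± 6.85 CPM. Its lowest library was E18.5 replicate 2, at 57.0 CPM against 78.3 and 82.2 CPM in the other two of that day. Tgfb3 was higher at P8 than at E18.5 by 0.28 on the log2 scale (edgeR FDR = 0.0468), the sole comparison out of 6 in which it passed, and this call was lost in 14 of 21 alternatives (FDR up to 0.18; log2 0.13 without E18.5 replicate 2). Without the libraries with heart or thymus RNA, Tgfb2 was higher at P8 than at E18.5 (log2 0.29, edgeR FDR = 0.0341), against 0.04 with them (edgeR FDR = 0.765).

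Per kilobase of annotated exon, which allows levels of different genes to be compared, Tgfb3 was the most abundant of the 3 ligands at every time-point, at 20.8 to 24.9 CPM per kb in the group means. Tgfb1 went from 6.58 ± 0.18 CPM per kb at E15.5 to 18.2 ± 0.39 at P8, where Tgfb2 stood at 15.9 ± 2.52 with overlapping libraries. Tgfb1 thus made up 14.5% ± 1.06 and 15.8% ± 1.19 of the summed ligand level per kb at E15.5 and E18.5, and 28.6% ± 1.37 and 31.0% ± 2.69 at P5 and P8. The lowest postnatal library (27.3%) was above the highest embryonic one (17.1%).

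The BMP ligands showed another pattern. Bmp4 (chr14:46383520-46390669, minus strand), a morphogen of the distal lung bud and later of mesenchyme and endothelium, dipped at E18.5. It measured 57.5, 59.0 and 62.0 CPM at E15.5 and 45.2, 42.9 and 38.9 CPM at E18.5, then 60.9, 74.0 and 69.5 CPM at P5 and 66.3, 72.6 and 86.1 CPM at P8. All 3 E18.5 libraries lay below all 9 others. Bmp4 fell by 0.49 ± 0.09 on the log2 scale from E15.5 to E18.5 (edgeR FDR = 0.00444) and rose by 0.77 ± 0.09 from E18.5 to P5 (edgeR FDR = 9.37e-06), both also without the libraries with heart or thymus RNA. Bmp5 (chr9:75775364-75900310, plus strand), a mesenchymal BMP, had means of 56.9 ± 1.89, 60.5 ± 3.40, 54.2 ± 2.23 and 45.0 ± 7.14 CPM. Its P8 libraries were split, at 40.7 and 41.1 CPM in replicates 1 and 2, which had high thymus gene levels, and 53.3 CPM in replicate 3. The fall of Bmp5 from E15.5 to P8 (log2 −0.26, edgeR FDR = 0.024) shrank to −0.08 without the 4 libraries (edgeR FDR = 0.611). Per kb, Bmp4 was 1.87 ± 0.05 times Bmp5 in the E15.5 libraries, 1.25 ± 0.08 times in the E18.5 libraries, 2.25 ± 0.27 times in those of P5 and 2.99 ± 0.15 times in those of P8. This ratio was lowest at E18.5, and its libraries did not overlap between E18.5 and any other time-point.

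**Figure D1:**
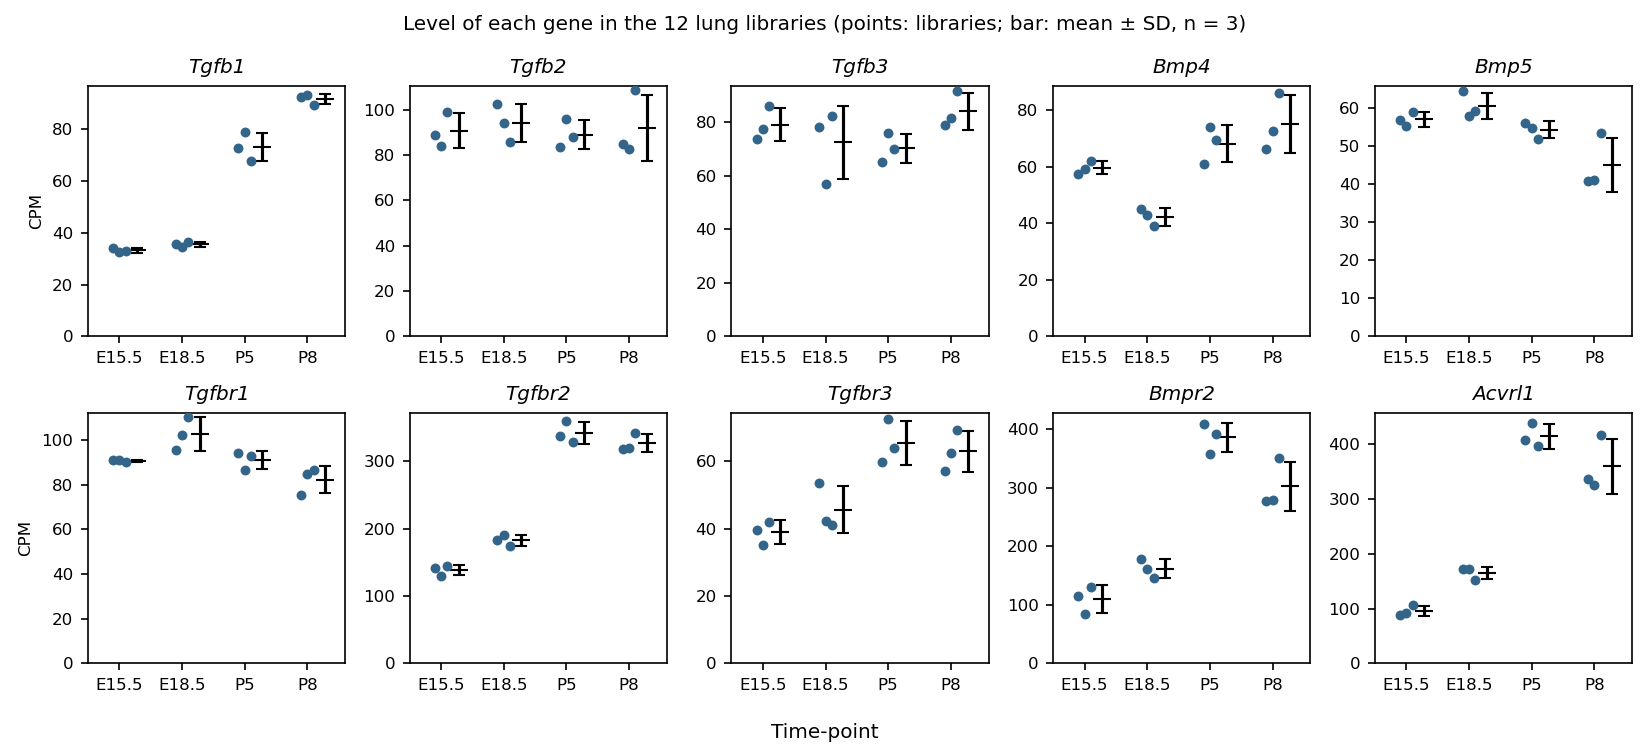
CPM of the 10 genes (vertical axes, from 0, each with its own scale) at the 4 time-points (horizontal axis), ligands in the upper row and receptors in the lower. Points are libraries and bars are mean ± SD (n = 3). Tgfb1, Tgfbr2, Bmpr2 and Acvrl1 step up between E18.5 and P5, Bmp4 dips at E18.5, and Tgfb2, Tgfb3 and Tgfbr1 stay within 70.4 to 103 CPM in their group means.

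Among the receptors, Tgfbr2 and Bmpr2 (type II) and Acvrl1 (type I) rose before birth and again, by a larger log2 fold change, between E18.5 and P5. The step over birth spans more days than the prenatal one, and rates per day were not compared. The TGF-β type I receptor Tgfbr1 did not rise after birth. Acvrl1 (chr15:101128522-101145336, plus strand) measured 89.2, 91.6 and 106 CPM at E15.5 and 172, 171 and 152 CPM at E18.5. It measured 407, 439 and 396 CPM at P5 and 337, 325 and 417 CPM at P8. The groups did not overlap except P5 with P8, in which P8 replicate 3 lay among the P5 libraries. Acvrl1 rose by 0.80 ± 0.10 on the log2 scale in the prenatal step (edgeR FDR = 0.000779) and by 1.41 ± 0.10 in the step over birth (2.66-fold, edgeR FDR = 1.06e-07). From E15.5 to P8 Acvrl1 rose 3.97-fold, the most of the 10 genes.

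Bmpr2 (chr1:59763400-59879014, plus strand) measured 116, 84.1 and 131 CPM at E15.5 and 179, 162 and 145 CPM at E18.5. After birth it measured 408, 359 and 391 CPM at P5, and 277, 280 and 351 CPM at P8. Its lowest library, E15.5 replicate 2, was also the one with the most heart RNA. Bmpr2 rose by 0.56 ± 0.15 on the log2 scale from E15.5 to E18.5 (edgeR FDR = 0.0197) and by 1.34 ± 0.15 from E18.5 to P5 (2.53-fold, edgeR FDR = 5.11e-06). The prenatal step did not hold in all settings: without the heart and thymus libraries it was 0.31 (edgeR FDR = 0.192), and without E18.5 replicate 1 or 2 the FDR was 0.0822 or 0.0537. From P5 to P8 the libraries of Bmpr2 were apart, with all 3 of P8 lower, at a log2 difference of −0.37 ± 0.15 that missed the threshold (edgeR FDR = 0.0999).

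Tgfbr2 (chr9:116084293-116175360, minus strand) measured 142, 130 and 144 CPM at E15.5 and 182, 191 and 175 CPM at E18.5. After birth it measured 337, 360 and 328 CPM at P5, and 318, 320 and 342 CPM at P8. Again the embryonic groups lay apart from each other and from the postnatal ones, while P5 and P8 overlapped. Tgfbr2 rose by 0.40 ± 0.06 from E15.5 to E18.5 (edgeR FDR = 0.00191; 0.34 with an FDR of 0.0632 without the heart and thymus libraries) and by 0.99 ± 0.06 from E18.5 to P5 (1.99-fold, edgeR FDR = 4.11e-08). The latter lies just under the 2-fold cutoff. Tgfbr3 (chr5:107106570-107289629, minus strand), the betaglycan co-receptor, rose less, from 45.6 ± 6.96 CPM at E18.5 to 65.4 ± 6.48 CPM at P5 (log2 0.60 ± 0.11, edgeR FDR = 0.000405), and its change before birth did not pass (log2 0.24, edgeR FDR = 0.157).

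Tgfbr1 (chr4:47353222-47414931, plus strand) measured 91.2, 90.9 and 90.3 CPM at E15.5 and 95.4, 102 and 110 CPM at E18.5. After birth it measured 94.1, 86.6 and 92.95 CPM at P5, and 75.6, 84.8 and 86.5 CPM at P8. Its highest group was E18.5 and its lowest P8. None of the 3 neighbouring steps of Tgfbr1 passed the test (edgeR FDR from 0.053 to 0.253), and from E18.5 to P8 it fell by 0.25 on the log2 scale (edgeR FDR = 0.0028), a call lost without the heart and thymus libraries (log2 −0.17, edgeR FDR = 0.13). With library sizes in place of TMM factors, its E18.5 to P5 difference was −0.15 and passed (edgeR FDR = 0.0459). The E15.5 to E18.5 difference of Tgfbr1 (log2 0.18) was one in which the libraries did not overlap. It passed in 6 of 21 alternatives, among them DESeq2 (DESeq2 FDR = 0.0354). The balance between the receptors shifted accordingly. Per kilobase, Tgfbr2 was 1.22 ± 0.07 and 1.43 ± 0.14 times Tgfbr1 at the embryonic time-points and 2.998 ± 0.277 and 3.17 ± 0.17 times at the postnatal ones. The ratio of Acvrl1 to Tgfbr1 went from 1.61 ± 0.16 through 2.48 ± 0.33 to 6.97 ± 0.69 and 6.70 ± 0.76. No embryonic library reached the lowest postnatal value of either ratio.

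Counted over the 10 genes, from E15.5 to E18.5 Tgfbr2, Bmpr2 and Acvrl1 rose and Bmp4 fell, where 11.6% of all tested genes rose and 9.87% fell. None of the 10 genes passed both cutoffs in this edgeR comparison (3.04% of all genes did) or with DESeq2. The next lowest FDR among the 10 genes was that of Tgfbr1 (edgeR FDR = 0.053). From E18.5 to P5, 6 of the genes rose and none fell in edgeR or DESeq2, while 35.4% of all genes rose and 35.7% fell. Of these 6, Tgfb1, Bmpr2 and Acvrl1 passed both cutoffs (26.8% of all genes in either direction, 17.5% upwards). Only Tgfb1 passed from P5 to P8, upwards as did 9.75% of all genes, and none of the 10 passed both cutoffs in edgeR or DESeq2 (2.96% of all genes). The next lowest FDR there was that of Bmp5 (edgeR FDR = 0.0568). From E15.5 to P8, 6 genes rose and Bmp5 fell (37.6% and 38.7% of all genes), and Tgfb1, Tgfbr2, Bmpr2 and Acvrl1 passed both cutoffs (32.3% of all genes in either direction, 20.9% upwards). At the step over birth the median log2 fold change was 0.69 over the 10 genes and −0.002 over all tested genes. The 10 genes were chosen with earlier results of these data known, so these counts and medians are a description.

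**Figure D2:**
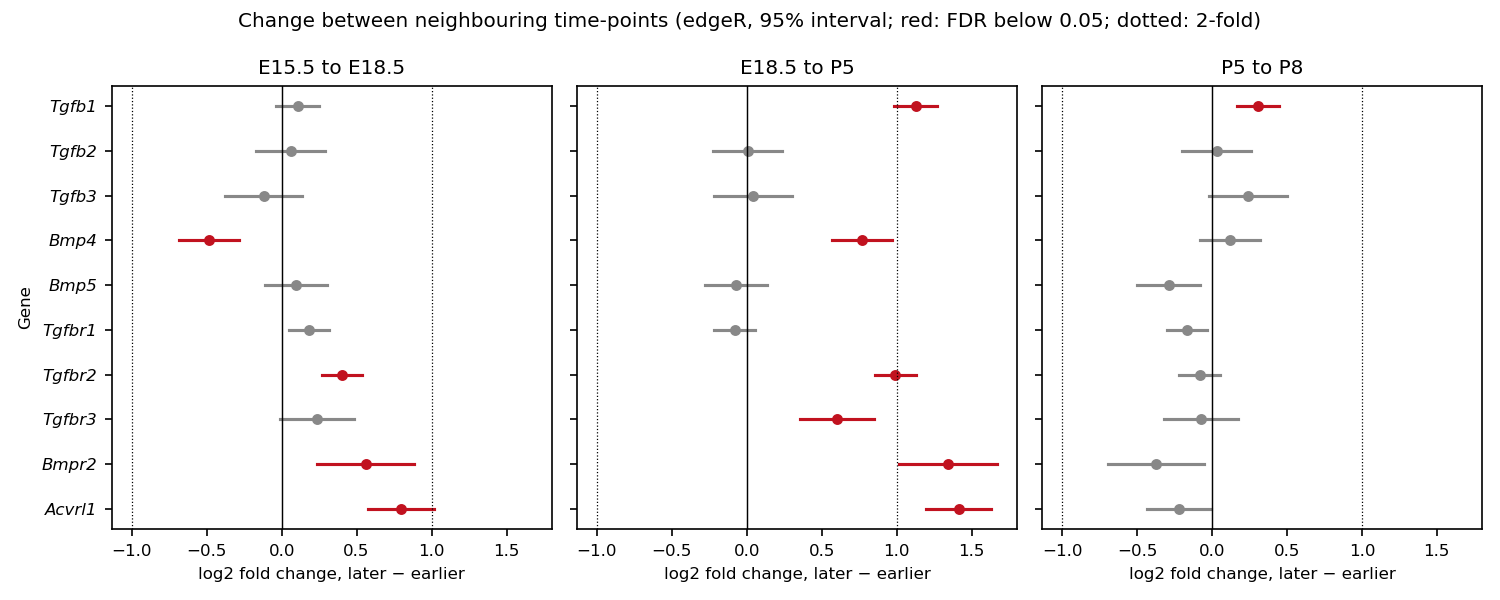
Log2 fold change of the 10 genes (rows) between neighbouring time-points (panels), later minus earlier, with 95% intervals from the edgeR fit. Red marks an FDR below 0.05, grey one at or above it, and dotted lines mark 2-fold. The middle panel holds 6 red genes, all to the right of 0, and the right panel only Tgfb1.

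In order of mean level, Tgfb1 ran E15.5, E18.5, P5, P8, and its embryonic neighbours were the only pair not to differ. Tgfbr2, Tgfbr3, Bmpr2 and Acvrl1 shared the order E15.5, E18.5, P8, P5. For all 4 the highest pair, P8 and P5, did not differ at this FDR, and for Tgfbr3 the lowest pair, E15.5 and E18.5, did not either. Bmp4 ran E18.5, E15.5, P5, P8, with no difference between P5 and P8. Its difference between E15.5 and P5 (log2 0.29, edgeR FDR = 0.013) lost its call in 5 of 21 alternatives, among them the fits without the heart and thymus libraries (log2 0.23, edgeR FDR = 0.0946) and without P5 replicate 2 (edgeR FDR = 0.0597). No neighbours in the order differed for Tgfb2, Tgfb3, Tgfbr1 or Bmp5.

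Markers of other cell types moved with these genes, and in bulk tissue more cells of a type cannot be told apart from more RNA per cell. The summed level of 8 endothelial markers (Pecam1, Cdh5, Kdr, Tek, Tie1, Cldn5, Emcn and Egfl7) ranged from 990 to 1067 CPM at E15.5, 1276 to 1386 CPM at E18.5, 2870 to 3020 CPM at P5 and 2434 to 2932 CPM at P8, with no marker at 0. All 8 rose from E18.5 to P5, with a median log2 fold change of 1.21. The sum of 8 mesenchymal markers, most of it collagen, was 4150 ± 107 CPM before and 4318 ± 260 CPM after this step, and its members differed: Tcf21, Pdgfrb and Col3a1 rose by 1.07, 0.69 and 0.20, Fgf10 fell by 0.40 and the other 4 did not pass. Without the heart and thymus libraries 4 rose and 3 fell. The summed level of 8 immune markers went from 76.3 to 86.2 CPM at E18.5 to 2095 to 2687 CPM at P5, most of it Lyz2, and all 8 rose. Of 8 epithelial markers 3 rose and 4 fell over the same step, and their sum went from 2424 ± 474 to 15213 ± 998 CPM, most of it Sftpc. All 8 cell cycle markers fell from E18.5 to P5, with a median log2 fold change of −1.40.

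Set against the endothelial sum, the receptors separated. Acvrl1 stood at 9.26% ± 0.64 and 12.3% ± 0.27 of the marker sum before birth, then 14.1% ± 0.40 and 13.7% ± 0.44, and its E15.5, E18.5 and P5 libraries did not overlap. Tgfbr2 stood at 13.5% ± 0.31 and 13.6% ± 0.35 before birth and 11.7% ± 0.28 at P5, where it was lower in 3 of 3 libraries. Bmpr2 stood at 11.4 to 12.9% at E18.5 and 11.9 to 14.2% at P5, so that its libraries overlapped. Tgfb1 stood at 3.22% ± 0.11 and 2.64% ± 0.19 before birth, then 2.497% ± 0.135 at P5 and 3.53% ± 0.42 at P8. Its E15.5 and P8 libraries all lay above those of E18.5 and P5. Tgfbr1 went from 7.65% ± 0.91 at E18.5 to 3.12% ± 0.22 at P5. With 3 libraries a group an exact permutation test cannot go below a two-sided p of 0.1, and these ratios are given as a description. The part of vessel content or immune content in the postnatal rises was not tested.

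**Figure D3:**
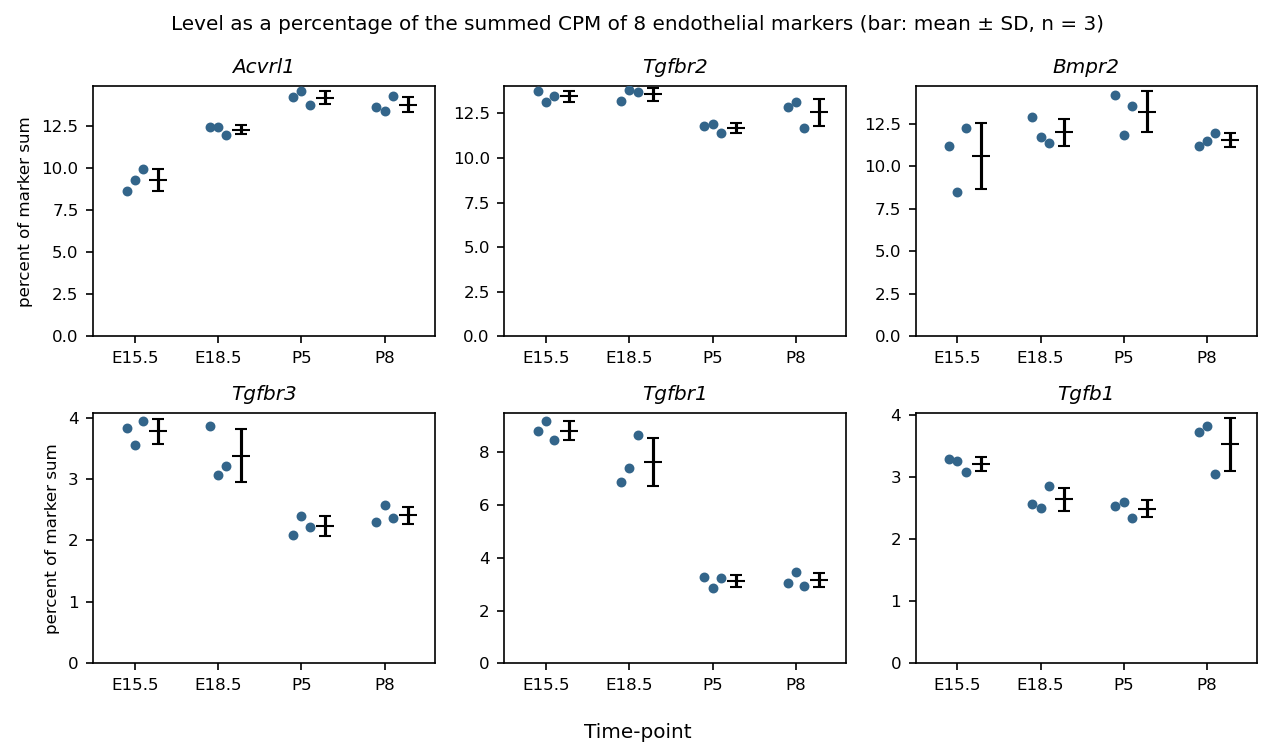
Level of 6 of the genes as a percentage of the summed CPM of 8 endothelial markers in the same library (vertical axes, from 0) at the 4 time-points. Points are libraries and bars are mean ± SD (n = 3). Acvrl1 goes up from 9.26% to 14.1% between E15.5 and P5, Tgfbr2 stays between 11.4% and 13.8% in all libraries, and Tgfbr1 and Tgfbr3 are lower after birth.

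The counts of the pathway lists that follow are from E18.5 to P5 and stand beside 35.4% of all tested genes that rose and 35.7% that fell. Of the other receptors and co-receptors of the family, 11 of 12 listed genes were in the count table. Here 5 rose, 4 fell and 2 did not pass, with a median log2 fold change of 0.03. Eng, the endothelial co-receptor endoglin, went from 151 ± 6.15 to 409 ± 36.8 CPM (log2 1.53 ± 0.10, edgeR FDR = 5.72e-08), close to the change of Acvrl1. Set against the endothelial marker sum, Eng had its lowest share on day E18.5 (11.2% ± 0.14). Its P5 libraries (13.98% ± 0.99) overlapped those of E15.5 (14.2% ± 0.95), which was not so for Acvrl1. The P8 share of Eng was 15.4% ± 0.80. Smaller rises in CPM than that of Eng were seen for the BMP co-receptor Rgmb (log2 0.42), the activin receptor Acvr2a (0.34) and Acvr1 (0.30). Acvr1 is ALK2, a type I receptor of BMPs and activins. The type I receptors Bmpr1a and Bmpr1b moved the other way from Acvr1 and Acvrl1: Bmpr1a fell from 168 ± 1.01 to 122 ± 5.43 CPM (log2 −0.38, edgeR FDR = 5.97e-05) and Bmpr1b from 11.6 ± 3.87 to 3.54 ± 0.34 CPM (log2 −1.63). Bmpr1b was at 9.17 ± 1.17 CPM at P8, a rise of 1.36 on the log2 scale from P5 (edgeR FDR = 0.0038) that lost its call without the heart and thymus libraries (log2 1.12, edgeR FDR = 0.0837). The co-receptor Rgma (−1.28) and the activin receptor Acvr2b (−0.45) fell as well. The co-receptor gene Hjv, named after its values were seen because its log2 fold change of 5.68 was the list's highest, was under 0.1 CPM in all E18.5 libraries and in E15.5 replicate 3. It reached 1.94 and 3.26 CPM in E15.5 replicates 1 and 2, the libraries with heart RNA. Hjv measured 0.90, 2.29 and 3.73 CPM in the P5 libraries and 4.47, 4.10 and 0.89 CPM in those of P8. Whether its level follows heart RNA was not tested.

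Of 19 other ligands listed, 13 were in the table, and from E18.5 to P5, 5 rose, 2 fell and 6 did not pass (median 0.11). Bmp6, an iron-regulatory and endothelial BMP, went from 4.22 ± 1.18 to 67.9 ± 3.36 CPM (log2 4.10 ± 0.20, edgeR FDR = 6.15e-09). Inhbb, the activin B subunit, went from 1.57 ± 0.31 to 14.6 ± 0.33 CPM (log2 3.30), Bmp2 from 4.44 ± 0.64 to 17.2 ± 1.42 CPM (2.04), and Bmp3 rose by 0.46. Bmp7, an epithelial BMP of branching organs, fell from 17.6 ± 2.68 to 2.03 ± 0.25 CPM (log2 −3.02, edgeR FDR = 1.84e-07), and Gdf11 fell by 0.87.

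TGF-β is secreted in a latent complex, held in the matrix by LTBP proteins and released by integrins or thrombospondin. All 12 listed genes of this group were tested, and 8 rose, 2 fell and 2 did not pass from E18.5 to P5 (median 0.56). Ltbp2, an elastic-fibre protein that unlike other LTBPs does not bind latent TGF-β, went from 40.4 ± 6.34 to 319 ± 16.6 CPM (log2 3.07 ± 0.20, edgeR FDR = 4.74e-08). Itgb6, the epithelial integrin subunit that activates TGF-β, went from 7.82 ± 0.38 to 39.5 ± 3.57 CPM (log2 2.42). Ltbp3, which tethers latent TGF-β, and Lrrc32, which holds it on the cell surface, rose by 0.74 and 0.73. The other activators Itgb8 and Thbs1 fell: Itgb8 from 9.75 ± 2.55 to 3.16 ± 0.42 CPM (log2 −1.54) and Thbs1 from 626 ± 55.8 to 245 ± 15.1 CPM (log2 −1.27).

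Of 17 tested extracellular antagonists and modulators (18 listed), 9 rose, 6 fell and 2 did not pass from E18.5 to P5 (median 0.17), the falls at about the share of all genes (35.7%). The DAN-family BMP antagonist Nbl1 rose by 1.33, the activin antagonist Fstl3 by 1.13 and the secreted glycoprotein Fstl1 by 0.29. The matrix proteoglycan Dcn fell by 1.39, the BMP antagonist Nog by 0.75, the decoy receptor Bambi by 0.60 and the protease Bmp1 by 0.26. At P8 Dcn was at 100.3 and 129 CPM in replicates 1 and 2, which had high thymus gene levels, and 56.5 CPM in replicate 3. Its P5 level was 29.6 ± 9.05 CPM. The rise of Dcn from P5 to P8 (log2 1.68, edgeR FDR = 0.00503) was 0.92 without the heart and thymus libraries, which leave 1 P8 library.

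Of 17 Smads and regulators, 5 rose, 7 fell and 5 did not pass (median −0.11), near the shares of all genes that rose and fell (35.4% and 35.7%). The inhibitory Smads rose, Smad6 from 52.2 ± 9.42 to 125 ± 1.86 CPM (log2 1.35 ± 0.11, edgeR FDR = 3.9e-07) and Smad7 from 36.4 ± 5.23 to 57.3 ± 2.49 CPM (log2 0.74 ± 0.09, edgeR FDR = 1.4e-05). The co-repressor Skil rose by 0.62 and the ubiquitin ligase Smurf2 by 0.50. The signal-carrying Smads Smad1 and Smad3 fell by 0.58 and 0.30, and the repressors Tgif2 and Tgif1 by 1.002 and 0.62.

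Of 12 tested BMP target genes, 7 rose, Bambi fell and 4 did not pass (median 0.34). Hey1, a transcription factor of the endothelium and also a Notch target, went from 21.04 ± 2.49 to 73.2 ± 4.87 CPM (log2 1.89 ± 0.15, edgeR FDR = 2.85e-07) and then fell by 0.63 to P8 (edgeR FDR = 0.0139). The latter call was lost without the heart and thymus libraries (log2 −0.38, edgeR FDR = 0.169). Of the 4 listed Id genes, the usual immediate readout of BMP signalling, 3 rose, each by under 2-fold: Id1 rose by 0.50 ± 0.10 (edgeR FDR = 0.000862), Id3 rose by 0.31 ± 0.06 (edgeR FDR = 0.000514), Id4 by 0.37 ± 0.13 (edgeR FDR = 0.02; named after its values were seen), and Id2 differed by −0.02 ± 0.06 (edgeR FDR = 0.786). Of 14 TGF-β target genes, 9 rose, 2 fell and 3 did not pass (median 0.97). Cdkn2b, a cell cycle inhibitor, went from 1.76 ± 0.70 to 33.9 ± 0.93 CPM (log2 4.36 ± 0.27, edgeR FDR = 3.02e-08). Ccn2 (CTGF) rose by 2.26 and the matrix gene Fn1 by 1.78. Snai1 and Snai2, transcription factors of mesenchymal cells, fell by 0.85 and 0.84. Smad6, Smad7, Smad9, Skil, Pmepa1, Ltbp2 and Bambi stand in 2 or more pathway lists each and are counted in each, and Col1a1 is both a TGF-β target and a mesenchymal marker.

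**Figure D4:**
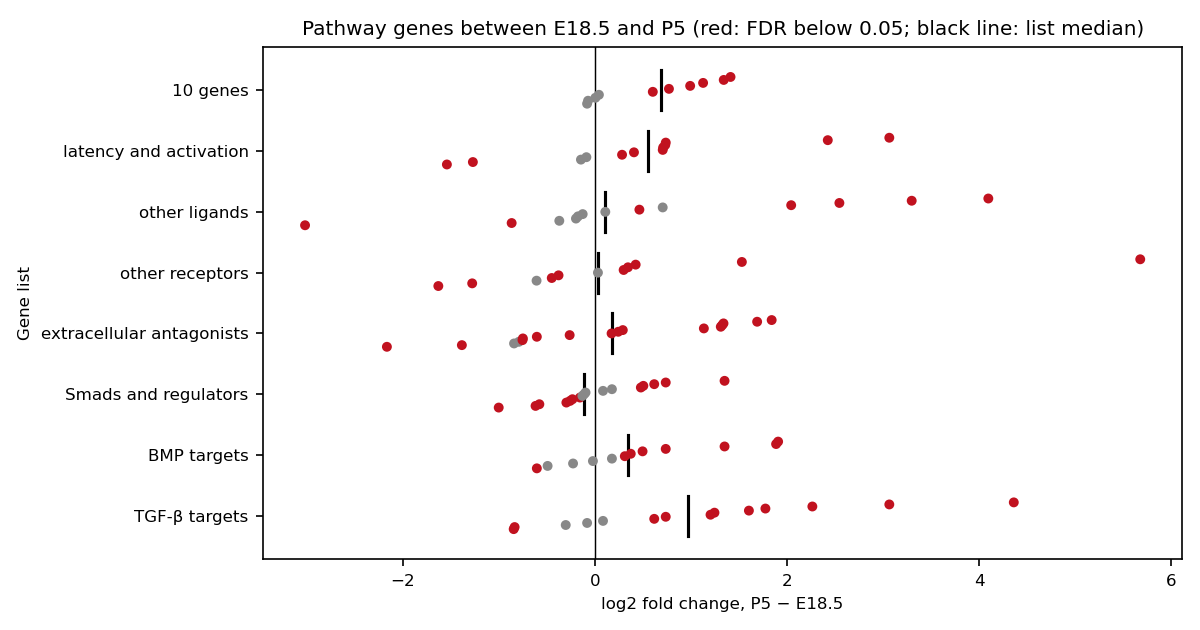
Change from E18.5 to P5 on the log2 scale (horizontal axis) of each tested gene of the 10 genes and of 7 pathway lists (rows). Red points have an FDR below 0.05 and black lines are list medians. The medians run from −0.11 for Smads and regulators to 0.97 for TGF-β targets, and the point farthest right is Hjv.

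Splicing was measured as percent spliced in (PSI), the share of a gene's transcripts that include an exon, from reads over its junctions. The deposited table names events by an identifier alone, and 1 event each was tied to Tgfbr2, Ltbp3 and Smad2 through the study's own list of events. That list was picked for differences between these libraries, so the values are a description and were not tested. The table gives no coordinates, and the exon printed above is the only cassette exon annotated in Tgfbr2, so the match rests on the annotation. The Tgfbr2 exon had PSI values of 23.4, 31.8 and 24.6% at E15.5 and 16.3, 25.04 and 29.8% at E18.5, then 44.7, 39.7 and 44.9% at P5 and 37.9, 37.6 and 40.8% at P8. Every postnatal library was above every embryonic one, and the group mean went from 23.7% ± 6.83 at E18.5 to 43.1% ± 2.94 at P5, 19.4 percentage points higher. Between 284 and 923 reads per library lay behind these values. The form with the exon, known as TβRII-B, carries an insert in the extracellular part of the receptor. The shift came at the same step as the 1.99-fold rise in total Tgfbr2.

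The Ltbp3 exon differed in the same direction, with 18.1% ± 3.80 at E18.5 and 31.6% ± 3.15 at P5, and no embryonic library (highest 22.3%) reached the lowest postnatal one (27.4%). The Smad2 exon was included nearly always at E15.5 (97.5% ± 2.55) and less at each later time-point, at 93.3% ± 5.05, 88.3% ± 1.62 and 80.3% ± 1.57. At P8 its 3 libraries, from 79.0 to 82.0%, lay below all others. Total Smad2 did not pass the test from E18.5 to P5 (log2 −0.11, edgeR FDR = 0.181). Over the whole span its level was lower at the end, with means of 60.1 ± 1.72, 58.4 ± 6.03, 50.8 ± 1.35 and 50.2 ± 0.47 CPM from E15.5 to P8. The P8 libraries (49.8 to 50.8 CPM) all lay below those of E15.5 (58.2 to 61.7 CPM).

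**Figure D5:**
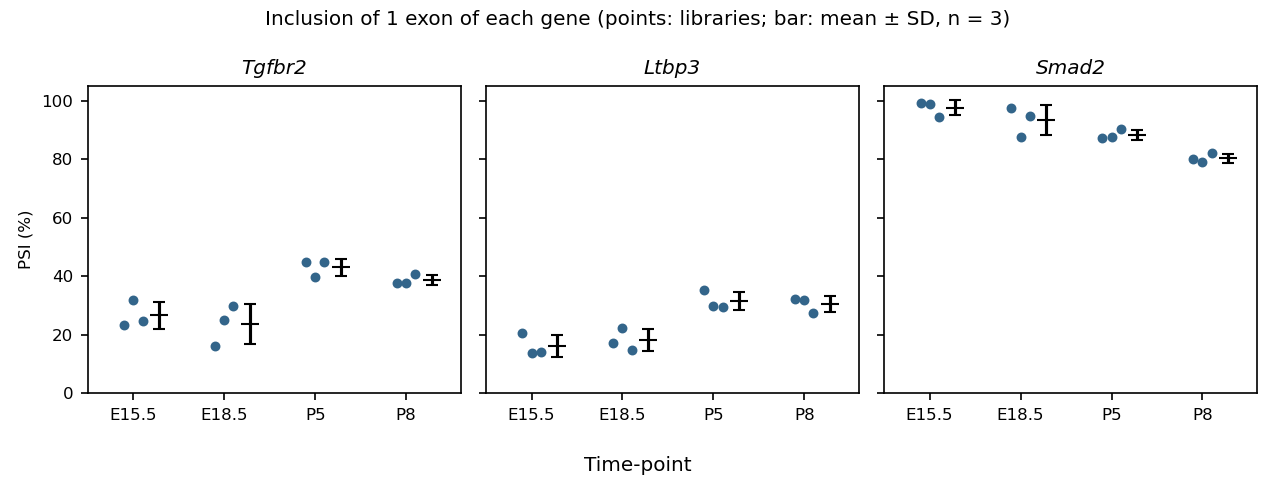
PSI in percent (vertical axis, from 0) of 1 exon each of Tgfbr2, Ltbp3 and Smad2 at the 4 time-points. Points are libraries and bars are mean ± SD (n = 3). The Tgfbr2 and Ltbp3 exons are higher at P5 and P8 than at both embryonic time-points, and the Smad2 exon goes down to 80.3% at P8.

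The genes outside all lists whose profile over the 12 libraries was most like each of the 10 were sought among 12022 genes with a mean of at least 5 CPM, by the root mean square (RMS) difference of standardised log2(CPM + 1) values in SD units. The 12 points fall at 4 time-points, so a small difference means mainly a like order of time-points. The closest pairs were Tgfbr2 with Jcad (0.06), Tgfb1 with Gabrp (0.07), Bmpr2 with Dstyk (0.10), Acvrl1 with Phex (0.10) and Tgfbr3 with Pitpnc1 (0.12). Jcad, a gene of endothelial junctions, had 132 CPM before birth (E18.5) and 326 CPM at P5. Tgfb1 and Gabrp agreed in shape and not in size, since Gabrp went from 0.29 to 17.6 CPM over the same step. For the other 5 the nearest gene was less close: Bmp5 with Ctdsp2 (0.24), Bmp4 with Gtpbp2 (0.29), Tgfbr1 with Zbtb6 (0.33), Tgfb2 with Fhod1 (0.38) and Tgfb3 with Tacc2 (0.62).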

How the data were processed

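Whole-lung RNA was sequenced from TruSeq libraries on an Illumina HiSeq platform. As the submitters' processing notes and the methods state, the authors aligned reads to mm10 with TopHat2 2.1.1 and Bowtie2 2.3.4 and counted them per gene with HTSeq 0.10.0; the strand setting is not given in the sources used here, so reads of overlapping antisense genes may be included. The deposited count table holds raw counts of 16152 expressed genes. The deposited CPM table holds CPM (counts scaled to 1000000 mapped reads) of 51825 genes. The mapped reads per library (48436716 to 62279460) were worked out from the ratio of counts to CPM. Multiplied by them, 100.0% of the CPM values came out whole within 0.01. For the 16152 genes that also have counts, 100.0% equalled the counts. The deposited percent spliced in (PSI) table holds percent values of 661162 events made by the authors with VAST-TOOLS, with read support. Symbols, positions and exon lengths came from Gencode vM21 (16136 IDs matched).

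The 10 genes and the lists were chosen with earlier results of these data known. Counts were fitted with edgeR 4.0.16 (R 4.3.3; quasi-likelihood, TMM, 4 time-points as groups) over 15994 genes with at least 1 CPM in 3 libraries, and the script was tested on simulated data. Named besides the 10 genes were, per pathway list, up to 4 genes a direction with a mean of at least 5 CPM, FDR under 0.05 and the largest change from E18.5 to P5, plus Eng, Bmpr1a, Smad6, Smad7, Id1, Id2, Id3 and nearest profiles; some genes that the rule names are not reported here. Alternatives were DESeq2 1.42.0, library sizes without TMM, limma 3.58.1 on log2(CPM + 1) or log2(CPM + 0.1), no filter, the 2 time-points alone, a replicate block, each library left out and, added after seeing the data, reads recovered from CPM (16214 genes; 4376 past both cutoffs from E18.5 to P5) and the fit without the heart and thymus libraries. Libraries of a group differed by more than sampling noise. Genes listed but not analysed here were Bmp8a, Gdf2, Gdf5, Gdf7, Nodal, Mstn, Tdgf1, Chrdl2 and Msx2.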

Additional observations from a re-analysis of the deposited data

How the results depend on the processing

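Across 21 alternatives, 1178 of the 1260 values of single genes (10 genes, 6 pairs of time-points) kept their direction and their side of the FDR threshold. From E18.5 to P5 the 6 rising genes rose in every alternative, and the number of genes past both cutoffs was 3 or 4, the fourth being Tgfbr2. Replicate numbers did not pair the libraries (correlations of same-numbered libraries from −0.29 to 0.27, with 4 of 12 libraries most like their own number), and the replicate block gave 0, 3, 0 and 4 genes past both cutoffs and 4, 6, 1 and 7 past the FDR for the 4 comparisons, as without it. The number past the FDR from P5 to P8 was 1 in the reported fit, 2 with DESeq2, 3 with only the 2 time-points, 0 without the heart and thymus libraries, and 1 to 5 with a library left out, where P8 replicate 3 gave the 5 (Tgfb1, Tgfbr1, Bmp5, Bmpr2 and Acvrl1) and E15.5 replicate 2 gave 2. From E15.5 to E18.5 it was 2 in place of 4 without the heart and thymus libraries. With a library left out, the number past the FDR from E15.5 to E18.5 was 3 to 5. The cause of these shifts was not tested, and the effect of fewer libraries was not separated from it.

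Signs turned only for differences that did not pass. Tgfb2 from E18.5 to P5 was −0.0621 with library sizes alone and −0.0770 and −0.0778 with limma at pseudocounts of 1 and 0.1, and Tgfb3 was −0.0257, −0.0276 and −0.0278. In the same 3 settings Tgfb2 was −0.0192, −0.0249 and −0.0252 from E15.5 to P5 and −0.0154, −0.0379 and −0.0383 from E18.5 to P8, and Bmp5 was −0.0620, −0.0692 and −0.0703 from E15.5 to P5. Without the heart and thymus libraries Tgfb2 was −0.0789 (E15.5 to E18.5) and −0.0601 (E15.5 to P5), Bmp5 was −0.0232 (E15.5 to P5), Tgfbr3 was 0.0574 from P5 to P8 and Tgfbr1 was 0.00819 from E15.5 to P8. With a library left out, Tgfb2 ran from −0.0170 to 0.134 (E15.5 to E18.5), −0.0635 to 0.0821 (E18.5 to P5), −0.112 to 0.115 (P5 to P8) −0.0366 to 0.189 (E15.5 to P8) and −0.110 to 0.115 (E18.5 to P8), Bmp5 from −0.0232 to 0.0817 (E15.5 to P5) and Tgfb3 from −0.214 to 0.0280 (E15.5 to E18.5) and −0.107 to 0.135 (E18.5 to P5). Over all genes, 487 passed both cutoffs from E15.5 to E18.5, against 150 with limma on log2(CPM + 1), 291 with only the 2 time-points, 190 without the heart and thymus libraries and 284 to 572 with a library left out. From P5 to P8 they were 474, against 286, 496, 88 and 198 to 682. At the FDR alone these 2 comparisons gave 3441 and 2872 genes, 897 and 375 without those libraries, and 1934 to 3917 and 1202 to 3759 with a library left out. Without the heart and thymus libraries 7 of 12 BMP targets and 9 of 14 TGF-β targets rose from E18.5 to P5, as many as with them.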
